A study of Mus musculus with 6 samples.

Results

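The genes of the unfolded protein response and the heat shock response were examined in CD8+ T cells of WT and BIT mice. The group was fixed by name, as 39 gene symbols out of the 78275 genes of the count table. By role, 9 members were chaperones and folding factors of the endoplasmic reticulum (ER), 4 were sensors and transcription factors of the unfolded protein response, 4 belonged to ER-associated degradation, 7 to the ATF4 arm, 10 to the cytosolic heat shock response, 2 to the mitochondrial chaperonin, and 3 to ubiquitin and clearance. In BIT mice the sequence of *Psmb8*, which encodes the immunoproteasome subunit β5i, is replaced on both alleles by that of *Psmb11*, which encodes the thymoproteasome subunit β5t.

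A library was made from the TCRβhigh CD4-CD8+ T cells of each of 3 WT and 3 BIT mice, and its RNA was sequenced. All 6 mice are labelled as males of 9 to 10 weeks on the C57BL/6 background, and the cells were sorted to high purity without any treatment. The sample labels give lymph nodes as the tissue, their protocol names lymph nodes and spleens, and the study's methods name lymph nodes. The edited allele is carried in the germ line, so the T cells of BIT mice also developed in an edited thymus, and an effect within the T cells and an effect of their development cannot be told apart. The study made several BIT lines and used a single one where none is named, and the labels do not name the line.

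Proteasomes degrade misfolded proteins that are tagged with ubiquitin, and when folding fails in the ER, the sensors PERK, IRE1 and ATF6 raise the production of ER chaperones and of factors that return misfolded proteins to the cytosol for degradation. PERK acts through the translation factor eIF2α and the transcription factor ATF4, whose targets include genes of amino acid supply and of growth arrest. Misfolded proteins in the cytosol act through the transcription factor HSF1, which induces HSP70, HSP40 and related chaperones. Both responses are known to be induced when proteasomes are blocked.

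The libraries held between 37467678 and 52922675 estimated counts. *Psmb8* had 10790, 10345 and 8024 counts in WT mice against 73, 59 and 60 in BIT mice, and *Psmb11* had 0 counts in every WT mouse against 1926, 1754 and 1226 in BIT mice, so both edited genes followed the labels. The library labelled WT replicate 3 went against the label of a male mouse, with 66626 *Xist* counts and no count from Y-linked genes (0), whereas the other libraries had between 2 and 125 *Xist* counts. On the first principal component, which took 34.4% of the variance, replicate 3 of both genotypes stood apart at 54.6 (WT) and 28.6 (BIT), with the others between -36.5 and -3.31. The summed level of 10 CD8 T cell markers was between 5138 and 5578 CPM (counts scaled so that all libraries have the same total) in WT mice and between 5217 and 5525 CPM in BIT mice, and that of 4 CD4 T cell markers was between 3.22 and 5.68 CPM over all libraries.

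Among the members, 36 of 39 had enough counts to be tested, and no member differed between WT and BIT mice at an adjusted p below 0.05, where 22 of 16105 genes did (0.137%). These tests were limma-voom on quantile-normalised counts with Benjamini-Hochberg adjustment over all 16105 genes, and the smallest adjusted p among the members was 0.531 (*Hsp90ab1*). At an unadjusted p below 0.05, 4 members were higher in BIT mice (11.1%, against 4.25% of all genes), namely *Atf6*, *Sel1l*, *Hspa8* and *Hsp90ab1*. *Dnajb9* and *Ubb* were lower at that level, 2 members (5.56%) against 4.32% of all genes. With TMM normalisation, *Atf6*, *Sel1l* and *Dnajb9* stayed below an unadjusted p of 0.05, and *Hspa8*, *Hsp90ab1* and *Ubb* did not. *Vcp* came below it in that setting by limma, so that 4 members were below it, where 1334 of all 16105 genes were. The fitted difference was above 0 in 19 members (52.8%), near the 52.3% of all genes, and the median log2 difference was 0.02 in the members and 0.01 in all genes. With TMM normalisation, 23 of the 36 members were above 0, where 49.4% of all genes were, so this split depended on the scaling. Without WT replicate 3, 0 of 37 tested members reached an adjusted p below 0.05 by limma and 5 had an unadjusted p below it. Among all 16502 genes tested in that setting, 37 reached the adjusted level and 1930 the unadjusted level.

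For most members the libraries also set a limit on the size of a difference. The fitted difference was within 0.5 log2 units in 33 of the 36 tested members (91.7%, against 85.2% of all genes). The 95% interval lay within 1 log2 unit of 0 in 32 members and within 0.5 log2 units in 25. The 4 members with wider intervals were *Ppp1r15a*, *Hspa1a*, *Hspa1b* and *Trib3*. A limma p-value here sets the difference between genotypes against the spread between individual mice, 3 per group, moderated over all genes. An exact permutation test of 3 against 3 cannot go below 0.1. In RNA of a sorted population, fewer cells with a high level and less RNA per cell cannot be told apart.

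**Figure D1:**
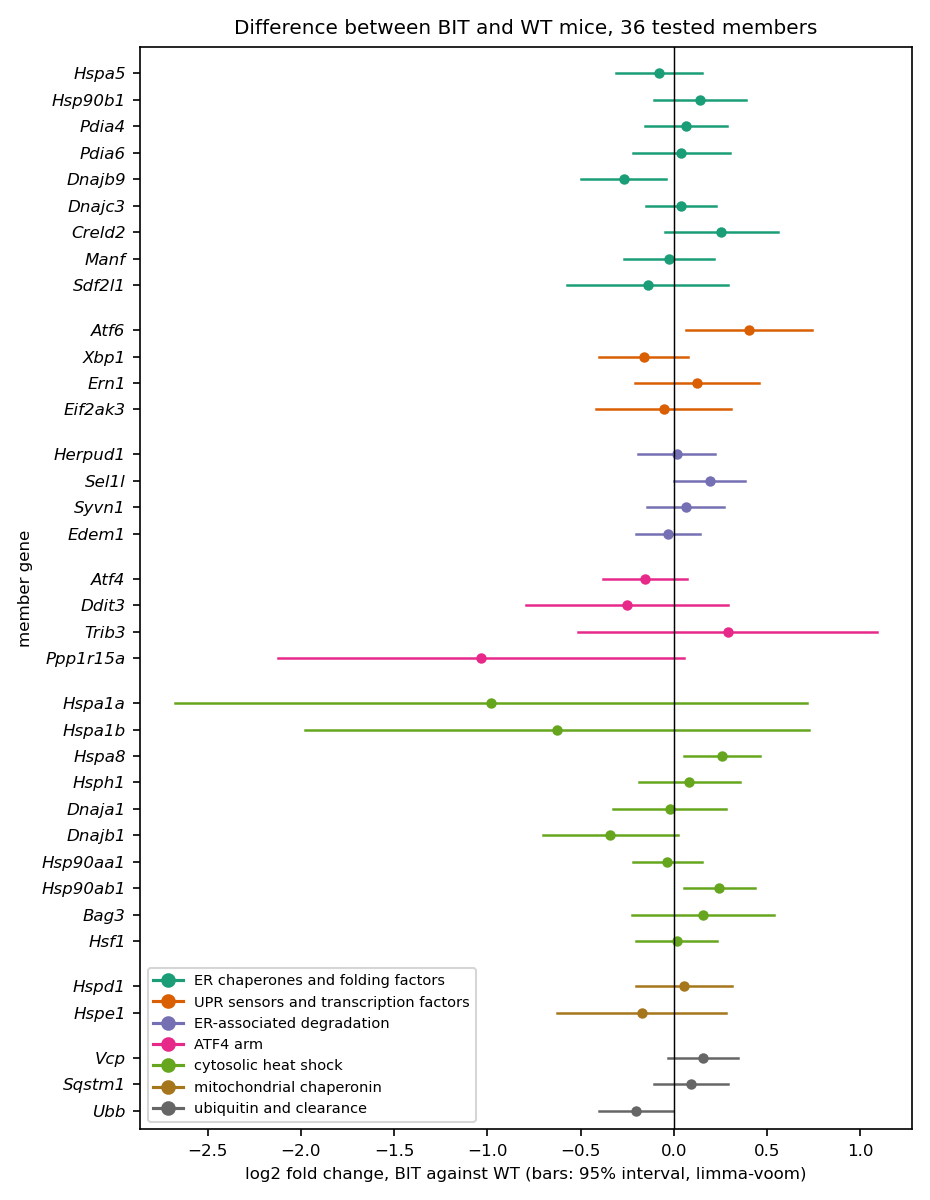
Log2 fold change of the 36 tested members, BIT against WT mice, by arm, with points for the limma-voom estimate and bars for its 95% interval. The intervals of 32 members stay within 1 log2 unit of 0, and those of *Hspa1a*, *Hspa1b*, *Ppp1r15a* and *Trib3* reach further.

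Level per length, as CPM per kb of annotated exon, set the members in an order that covered a wide range. The length counted all annotated exons of a gene, such as 8680 bases for *Hspa8* and 2967 for *Hspa1a*. It need not be the length of the expressed transcript, so the order between genes depends in part on the annotation. *Hspa8*, the constitutive cytosolic HSP70, was the most abundant, at 329 CPM per kb in WT mice and 394 in BIT mice. *Hsp90ab1*, the constitutive cytosolic HSP90, followed with 211 and 250, and *Ubb*, a polyubiquitin gene, with 242 and 211, so that these neighbours changed places between genotypes. The ER chaperones *Hsp90b1* (53.2 in WT and 58.8 in BIT) and *Hspa5* (55.1 and 52.3) and the mitochondrial chaperonin gene *Hspd1* (51.8 and 54.1) had overlapping ranges over the 6 libraries. *Trib3*, a pseudokinase induced by ATF4, was the lowest tested member, at 0.163 CPM per kb in WT mice and 0.194 in BIT mice.

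**Figure D2:**
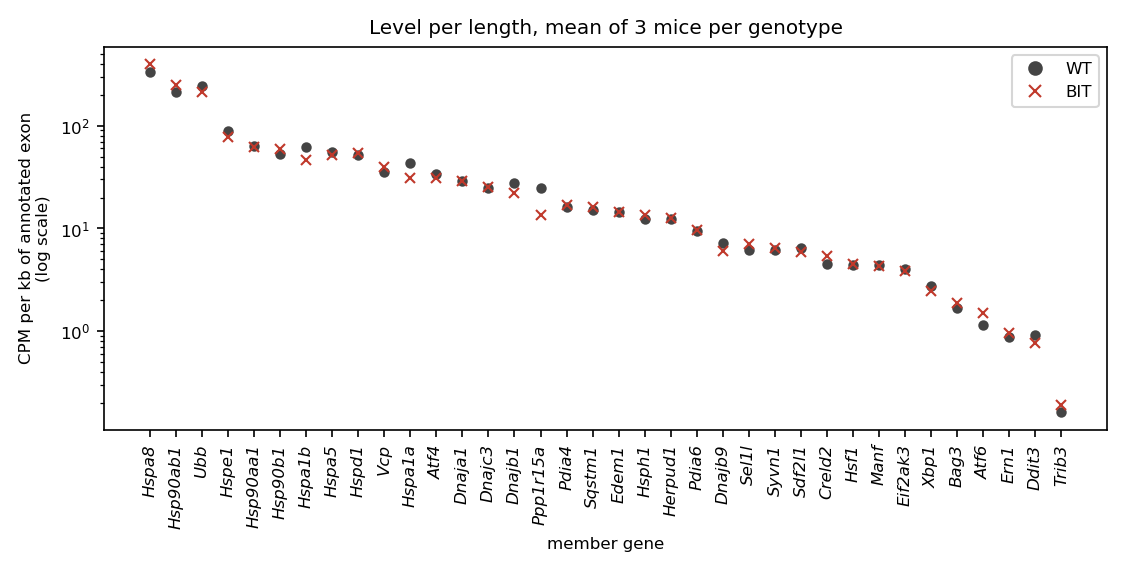
Mean level per length of the tested members in 3 WT mice (circles) and 3 BIT mice (crosses), as CPM per kb of annotated exon on a log axis, ordered by the mean of both genotypes. Both genotypes keep nearly the same order, from *Hspa8* at 361 CPM per kb to *Trib3* at 0.178.

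The ER chaperones are the direct output of ATF6 and XBP1, and many carry an ER stress element, in which a CCAAT box stands at a fixed distance from CCACG. The 300 bases before the start of the canonical transcript were searched on both strands for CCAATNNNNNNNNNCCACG, in 21770 protein-coding genes (GRCm39, Gencode M39). This start can lie inside the annotated bounds of the gene, as in *Hspa5*, *Hsp90b1*, *Ddit3* and *Chac1*. The element was found in 25 promoters (0.115%) and in 6 of the 39 members (15.4%), which were *Hspa5*, *Hsp90b1*, *Pdia6*, *Dnajc3*, *Creld2* and *Syvn1*. Members were chosen as genes of a response whose chaperones often carry the element. The share of 15.4% is therefore not independent of that choice. The stretches of these 6 members are printed here. Each is read 5′ to 3′ on the strand of its gene with the element in capitals, and in *Creld2* and at the second site of *Hsp90b1* the element lies on the other strand.
Hspa5, chr2:34662032-34662061 (+): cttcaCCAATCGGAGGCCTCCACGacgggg
Hsp90b1, chr10:86541496-86541525 (-): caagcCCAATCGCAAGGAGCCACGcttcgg
Hsp90b1, chr10:86541391-86541420 (-): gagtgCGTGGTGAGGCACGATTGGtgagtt
Pdia6, chr12:17316487-17316516 (+): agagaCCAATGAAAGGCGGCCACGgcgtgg
Dnajc3, chr14:119175234-119175263 (+): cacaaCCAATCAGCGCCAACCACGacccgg
Creld2, chr15:88703718-88703747 (+): cttctCGTGGCGAGCCTCAATTGGtccaca
Syvn1, chr19:6096557-6096586 (+): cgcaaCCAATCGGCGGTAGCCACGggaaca
A match of letters describes the sequence and does not show that a factor binds there.

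Of the 9 ER chaperones and folding factors, 5 were higher and 4 lower in BIT mice, with a median log2 difference of 0.04 against 0.01 in all genes (0.09 with TMM normalisation), and none passed the test. *Hspa5* encodes BiP, the ER HSP70 that holds the sensors inactive. It had 280, 332 and 307 CPM after quantile normalisation in WT mice and 311, 303 and 257 CPM in BIT mice. The groups overlapped, and the fitted log2 difference was -0.08 ± 0.102 (SE, limma adjusted p = 0.85), with a 95% interval from -0.31 to 0.15.

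*Hsp90b1*, the ER HSP90 also called GRP94, had 297, 338 and 340 CPM in WT mice and 352, 410 and 317 CPM in BIT mice. BIT replicates 1 and 2 were above every WT mouse and replicate 3 was within the WT range. Its log2 difference was 0.14 ± 0.109 (SE, limma adjusted p = 0.744), and 0.04 without BIT replicate 2.

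*Creld2*, an ER stress-inducible folding factor, was low, with 9.88, 9.67 and 10.0 CPM in WT mice and 11.8, 13.4 and 10.1 CPM in BIT mice. The groups did not overlap, although BIT replicate 3 was close to the highest WT mouse. Among all genes, 7.38% were higher in BIT mice without overlap, and among the members 5 (13.9%), *Creld2*, *Sel1l*, *Hspa8*, *Hsp90ab1* and *Vcp*. This set depended on the scaling. In plain CPM, 3 members (8.33%, against 6.09% of all genes) were higher without overlap, *Pdia4*, *Hspa8* and *Hsp90ab1*, and in CPM with TMM factors there were 2 (5.56%, against 6.95%), *Sel1l* and *Vcp*. *Creld2* overlapped in both, with plain levels of up to 11.0 CPM in WT mice and from 10.7 CPM in BIT mice. The log2 difference of *Creld2* was 0.26 ± 0.134 (SE, limma adjusted p = 0.643), and 0.16 without BIT replicate 2.

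*Dnajb9*, an ER HSP40 that is a known target of XBP1 and assists degradation, went the other way. It had 29.3, 31.9 and 29.8 CPM in WT mice and 25.5, 22.6 and 27.8 CPM in BIT mice, without overlap. On the log2 scale the difference was -0.27 ± 0.101 (SE), with an unadjusted p of 0.0264 and an adjusted p of 0.546 by limma. Without overlap and lower in BIT mice were 5.96% of all genes and 2 members (5.56%), *Dnajb9* and *Xbp1*. In plain CPM these were *Dnajb9* and *Ddit3* (against 6.69% of all genes), and with TMM factors *Dnajb9* and *Xbp1* (against 6.71%), so that *Dnajb9* was the only member without overlap under all 3 scalings.

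In the other ER folding factors the groups overlapped. *Pdia4* and *Pdia6*, which encode protein disulfide isomerases, had log2 differences of 0.06 and 0.04. *Dnajc3*, an ER HSP40, *Manf*, a secreted ER stress protein, and *Sdf2l1*, a partner of BiP, had 0.04, -0.03 and -0.14. The 6 members with the ER stress element thus lay between -0.08 for *Hspa5* and 0.26 for *Creld2*, with *Syvn1* at 0.06, and *Dnajb9*, *Pdia4*, *Manf* and *Sdf2l1*, without a match in this window, lay between -0.27 and 0.06.

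Among the sensors, *Atf6* had the highest fitted difference of all 36 tested members. ATF6 is the sensor that is cut in the Golgi to release a transcription factor. Its gene had 10.6, 9.82 and 13.5 CPM in WT mice and 14.3, 13.3 and 16.7 CPM in BIT mice. Replicate 3 was the highest mouse of each genotype, and WT replicate 3 was just above the lowest BIT mouse, so the groups overlapped. On the log2 scale the difference was 0.40 ± 0.149 (SE), with an unadjusted p of 0.0243 and an adjusted p of 0.539 by limma, and it was 0.53 without WT replicate 3.

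*Xbp1*, whose mRNA is spliced by IRE1 to encode the active transcription factor, had 19.3, 18.8 and 19.6 CPM in WT mice and 18.4, 15.4 and 17.9 CPM in BIT mice. All 3 BIT mice were below all 3 WT mice, whereas in plain CPM BIT replicate 3, with 18.6, was above WT replicate 2, with 17.9. Its log2 difference was -0.16 ± 0.105 (SE, limma adjusted p = 0.701), and -0.08 without BIT replicate 2. Counts per gene do not separate the spliced from the unspliced form. *Ern1*, the gene of IRE1, and *Eif2ak3*, the gene of PERK, had log2 differences of 0.12 and -0.05 with overlapping groups.

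For ER-associated degradation, *Sel1l* stood apart from the other members. SEL1L is the partner of the ubiquitin ligase HRD1. Its gene had 57.7, 52.7 and 59.2 CPM in WT mice and 61.1, 66.6 and 65.9 CPM in BIT mice, without overlap. In plain CPM, WT replicate 3, with 60.4, was level with BIT replicate 1, with 60.1. The log2 difference was 0.19 ± 0.0838 (SE), with an unadjusted p of 0.0481 and an adjusted p of 0.576 by limma. *Syvn1*, the gene of HRD1 itself, *Herpud1*, which joins the same complex, and *Edem1*, which hands over misfolded glycoproteins, had log2 differences of 0.06, 0.02 and -0.03 with overlapping groups.

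**Figure D3:**
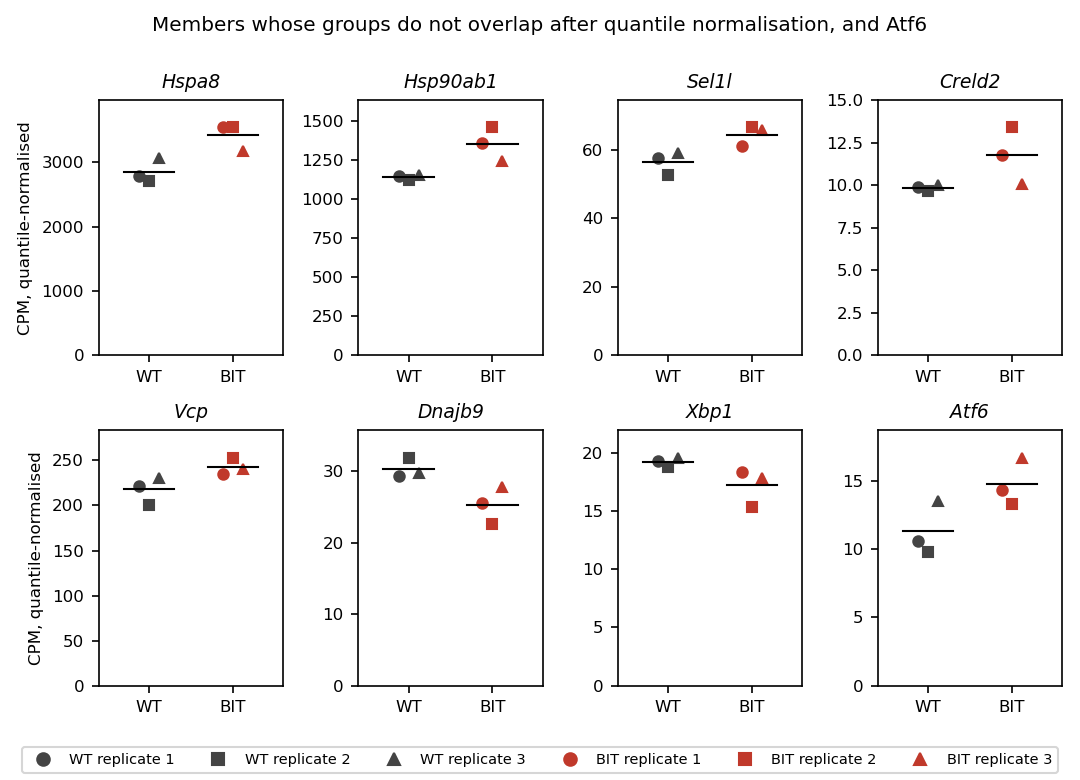
Level in each library, as CPM after quantile normalisation, of the 7 members whose groups did not overlap and of *Atf6*, with circles, squares and triangles for replicates 1, 2 and 3 and a line at the mean of 3 mice. *Hspa8*, *Hsp90ab1*, *Sel1l*, *Creld2* and *Vcp* are higher in every BIT mouse on this scale and *Dnajb9* and *Xbp1* lower, by at most 0.27 log2 units, whereas in plain CPM *Sel1l*, *Creld2*, *Vcp* and *Xbp1* overlap.

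In the ATF4 arm, 4 of the 7 members were tested, 1 higher and 3 lower in BIT mice, with a median log2 difference of -0.20. The other 3 were near the detection limit. *Atf3*, a stress-induced transcription factor, had 4, 5 and 1 counts among the WT mice against 3, 1 and 7 among the BIT mice. *Asns*, asparagine synthetase, had counts of 9, 5 and 8 (WT) against 10, 14 and 13 (BIT), each BIT count above each WT count. *Chac1*, a glutathione-degrading enzyme, had counts of 2, 0 and 0 (WT) against 0, 4 and 1 (BIT). A count of 0 allows a level of up to 0.0801 CPM in the shallowest library, by counting error only. With so few counts no test was made for these genes.

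*Atf4* itself had 74.7, 83.2 and 85.8 CPM in WT mice and 67.6, 70.0 and 82.0 CPM in BIT mice. The groups overlapped only through BIT replicate 3, and the log2 difference was -0.15 ± 0.0995 (SE, limma adjusted p = 0.701), or -0.10 with TMM normalisation. ATF4 is controlled mainly in translation, which RNA counts do not measure. *Ddit3*, the gene of CHOP, had between 4.12 and 6.57 CPM in WT mice and between 3.3 and 4.97 CPM in BIT mice, with a log2 difference of -0.25. A second annotated *Ddit3* row of 105 exon bases, inside the bounds of the first, had at most 2.47 counts, and with both rows summed the difference was also -0.25. *Trib3* had between 0.452 and 0.773 CPM over all libraries and a log2 difference of 0.29 with an SE of 0.353.

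*Ppp1r15a* had the largest fitted difference of the members in either direction. It encodes GADD34, which brings a phosphatase to eIF2α and so restores translation, and it lies at chr7:45172340-45175692 on the minus strand (GRCm39). The gene had 49.0, 52.6 and 115 CPM in WT mice and 22.6, 20.8 and 75.8 CPM in BIT mice. Replicate 3 was the highest in both genotypes, BIT replicates 1 and 2 were below every other mouse, and BIT replicate 3 was above WT replicates 1 and 2. The fitted log2 difference was -1.03 ± 0.48 (SE), with an unadjusted p of 0.0606 and an adjusted p of 0.611 by limma.

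The call for *Ppp1r15a* depended on how replicate 3 was treated. With a term that set replicate 3 of both genotypes apart, the log2 difference was -0.99 and the limma adjusted p was 0.0215. In replicates 1 and 2 alone, the difference was -1.23 with a limma adjusted p of 0.00506. *Ppp1r15a* was the only member called under these settings, where 42 and 71 of all genes were. Without the library that went against its label, WT replicate 3, the log2 difference was -0.65 with an adjusted p of 0.573, and without BIT replicate 3 it was -1.61 without reaching the threshold. Within replicate 3 the level was 115 CPM in the WT mouse and 75.8 CPM in the BIT mouse.

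Immediate early genes, which cells switch on quickly after a stimulus or handling, showed in their sum the same division of the libraries. The summed level of 15 such genes, in plain CPM, was 1119, 991 and 1597 in WT mice and 783, 758 and 1397 in BIT mice. It was lowest in BIT replicates 1 and 2 and highest in replicate 3 of both genotypes, as for *Ppp1r15a*. Of the 15 genes, 12 were lower in BIT mice and 3 higher (20.0%, against 52.3% of all genes). At an unadjusted p below 0.05 by limma, 6 were lower (40.0%, against 4.32% of all genes). At an adjusted p below 0.05 there were 0. *Fos* had 26.3, 24.6 and 71.4 CPM after quantile normalisation in WT mice and 7.61, 5.21 and 50.1 CPM in BIT mice. Not all of these genes followed the sum. *Egr1* had 88.1, 78.2 and 59.5 CPM in WT mice and 90.2, 80.7 and 64.5 CPM in BIT mice, and *Egr1* and *Egr2* were lowest in replicate 3 of both genotypes. The share of mitochondrial transcripts was also lower in BIT mice, at 2.98%, 1.91% and 3.45% against 3.85%, 5.61% and 4.13% in WT mice. The part of either in the level of *Ppp1r15a* was not tested.

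**Figure D4:**
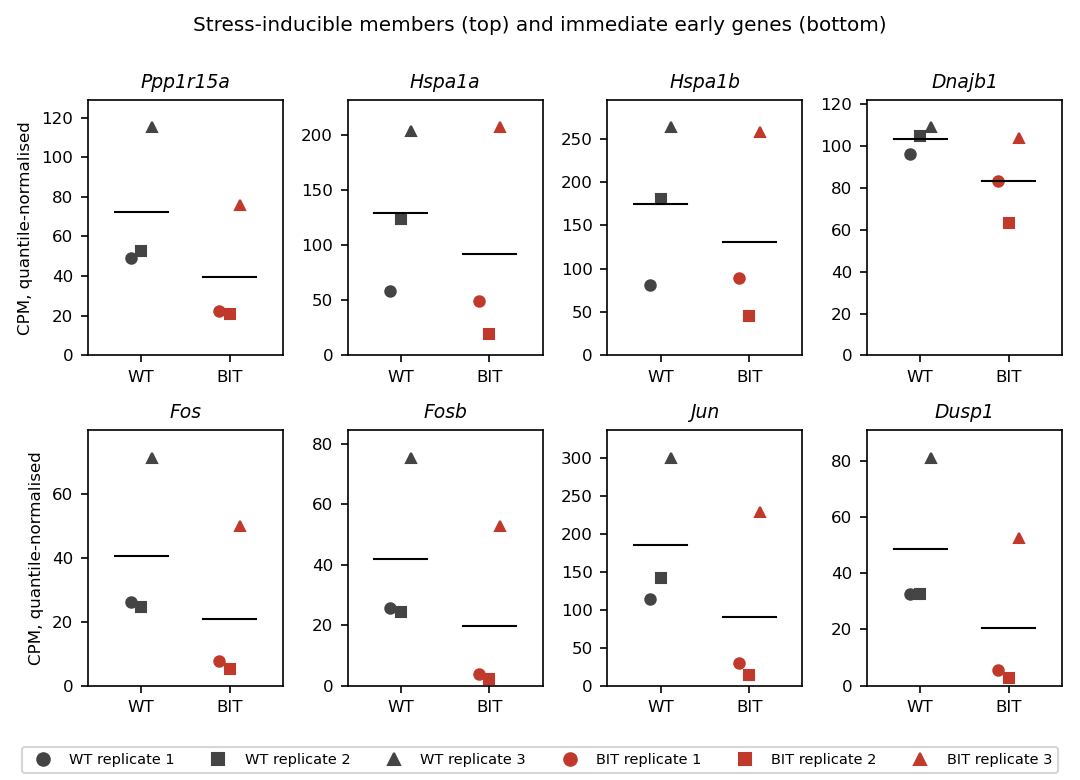
Level in each library, as CPM after quantile normalisation, of the members *Ppp1r15a*, *Hspa1a*, *Hspa1b* and *Dnajb1* (top) and of the immediate early genes *Fos*, *Fosb*, *Jun* and *Dusp1* (bottom), with a line at the mean of 3 mice. In all 8 genes BIT replicate 2 is the lowest library and replicate 3 of one genotype is the highest.

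Of the promoter elements of this arm, the amino acid response element TGATGNAA, which binds ATF4 with a partner, was searched in the same windows on both strands. It was found in 885 promoters (4.07%) and in 4 members, *Ddit3*, *Atf3*, *Chac1* and *Herpud1*, all on the strand opposite to the gene. The cAMP response element TGACGTCA was found in 381 promoters (1.75%) and in *Ppp1r15a* and *Hsp90ab1*. The stretches of *Ddit3* and *Chac1*, and of *Ppp1r15a* as the member with the largest difference, read as follows with the element in capitals.
Ddit3, chr10:127126350-127126379 (+): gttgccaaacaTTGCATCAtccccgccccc
Chac1, chr2:119181519-119181548 (+): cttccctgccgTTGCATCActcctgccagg
Ppp1r15a, chr7:45175693-45175715 (-): cgcctctccggTGACGTCAgcac
In *Ppp1r15a* the element ends 5 bases before the start of the canonical transcript.

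The cytosolic heat shock members did not move in one direction, with 5 higher and 5 lower in BIT mice and a median log2 difference of -0.00276, which was 0.05 with TMM normalisation. The members with the lowest p-values were the constitutive chaperones *Hsp90ab1* and *Hspa8*. *Hsp90ab1* had 1145, 1119 and 1151 CPM in WT mice and 1355, 1457 and 1242 CPM in BIT mice. The groups did not overlap, and the log2 difference was 0.24 ± 0.0842 (SE), with an unadjusted p of 0.0179 and an adjusted p of 0.531 by limma. Under TMM normalisation it was 0.23, with an unadjusted p of 0.103 by limma, and with edgeR and DESeq2 the unadjusted p was 0.122 and 0.0649. The groups did not overlap in plain CPM and overlapped with TMM factors.

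*Hspa8* had 2780, 2711 and 3071 CPM in WT mice and 3540, 3540 and 3172 CPM in BIT mice after quantile normalisation, also without overlap. The log2 difference was 0.26 ± 0.0893 (SE), with an unadjusted p of 0.0181 and an adjusted p of 0.532 by limma. This size depended on the normalisation. As plain CPM, without this normalisation, *Hspa8* had 2940, 2970 and 3080 in WT mice and 3280, 3170 and 3160 in BIT mice, and the log2 difference was 0.09 with TMM normalisation (limma adjusted p = 0.836) and 0.10 with DESeq2. Among the few most abundant genes, quantile normalisation replaces a level by the mean of its rank, and *Hspa8* thereby took the same value in BIT replicates 1 and 2.

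The widest spread among the members was that of the inducible HSP70 genes. *Hspa1a* and *Hspa1b* are neighbouring, nearly identical genes of inducible HSP70 at chr17:35188166-35191132 and chr17:35175412-35178214 (GRCm39, minus strand), 767738 and 754984 bases from *Psmb8*. *Hspa1a* had 58.7, 124 and 204 CPM in WT mice and 48.9, 19.5 and 207 CPM in BIT mice, and *Hspa1b* had 81.3, 180 and 263 CPM in WT mice and 89.2, 45.9 and 258 CPM in BIT mice. Replicate 3 was again the highest of each genotype, with almost the same level in both, and BIT replicate 2 was the lowest.

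The log2 differences were -0.98 ± 0.746 (SE) for *Hspa1a* and -0.63 ± 0.595 (SE) for *Hspa1b*, with limma adjusted p-values of 0.737 and 0.796. Without BIT replicate 2 they were -0.18 and -0.05, and without BIT replicate 3 they were -1.86 and -1.29. Of the stretches of 100 bases in the *Hspa1a* transcript, 47.1% also occur in that of *Hspa1b*, so that the counting had to divide reads between the genes, and the division is uncertain. The sum of both genes was a whole number in all 6 libraries, with counts of 7441, 13988 and 19024 (WT) against 6074, 2790 and 18426 (BIT). For that sum the log2 difference was -0.76 ± 0.664 (SE, limma adjusted p = 0.771).

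*Dnajb1*, the inducible HSP40 that works with HSP70, had 96.5, 105 and 109 CPM in WT mice and 83.2, 63.1 and 104 CPM in BIT mice. BIT replicates 1 and 2 were below every WT mouse and replicate 3 was within the WT range. Its log2 difference was -0.34 ± 0.16 (SE), with an unadjusted p of 0.0627 and an adjusted p of 0.616 by limma. With 1 mouse left out it lay between -0.51 (without BIT replicate 3) and -0.15 (without BIT replicate 2). The division of the libraries by immediate early genes, given above, held for these inducible chaperones too in that BIT replicate 2 was lowest, and its part in their levels was not tested.

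The other cytosolic members lay within 0.16 log2 units of 0. *Hsf1*, the transcription factor of the response, had between 41.6 and 47.5 CPM in WT mice and between 40.7 and 48.0 CPM in BIT mice, with a log2 difference of 0.02. *Hsp90aa1*, the inducible HSP90, had -0.03 and *Dnaja1*, an HSP40, had -0.02. *Hsph1*, an HSP110 that recharges HSP70, had 0.08 and *Bag3*, a co-chaperone of selective autophagy, had 0.16. All of these groups overlapped.

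The heat shock element was searched as GAANNTTCNNGAA, 3 inverted repeats of the unit that HSF1 binds. Only exact matches in the same windows were counted, so that members without one, such as *Hspa1a* and *Hspa1b*, need not lack the element. An exact match was found in 105 promoters (0.482%) and in 2 members, *Hspd1* and *Hspe1*, the genes of the mitochondrial chaperonin HSP60 and its partner HSP10. These genes are read in opposite directions from a common promoter, so that a single stretch serves as an example for both. It holds 2 overlapping matches, both in capitals.
Hspe1, chr1:55127212-55127241 (+): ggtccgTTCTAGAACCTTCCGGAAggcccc
*Hspd1* had 197, 199 and 183 CPM in WT mice and 212, 226 and 168 CPM in BIT mice, with a log2 difference of 0.05. *Hspe1* had 144, 211 and 118 CPM in WT mice and 156, 140 and 115 CPM in BIT mice. WT replicate 2 was far above the other 5 libraries, and the log2 difference of *Hspe1* was -0.17 ± 0.2 (SE, limma adjusted p = 0.829), or 0.06 without that mouse.

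Of the members of ubiquitin and clearance, *Vcp* encodes the ATPase that extracts proteins from the ER membrane for degradation. It had 222, 201 and 231 CPM in WT mice and 235, 253 and 240 CPM in BIT mice. The groups did not overlap on this scale, whereas in plain CPM WT replicate 3, with 235, was above BIT replicate 1, with 233. With TMM factors the groups did not overlap. The log2 difference of *Vcp* was 0.16 ± 0.082 (SE, limma adjusted p = 0.643), and 0.10 without WT replicate 2. With TMM normalisation it was 0.22, with an unadjusted p of 0.0455 and an adjusted p of 0.595 by limma. With DESeq2 it was also 0.22, with an unadjusted p of 0.0306 and an adjusted p of 0.538. *Ubb* had 669, 706 and 708 CPM in WT mice and 669, 581 and 568 CPM in BIT mice. The lowest WT mouse was level with the highest BIT mouse, and the log2 difference was -0.20 ± 0.0873 (SE), with an unadjusted p of 0.048 and an adjusted p of 0.576 by limma. With TMM normalisation it was -0.14 with an unadjusted p of 0.257, and with edgeR and DESeq2 the unadjusted p was 0.299 and 0.283. *Sqstm1*, the autophagy receptor p62, had a log2 difference of 0.09 with overlapping groups.

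The ER chaperone, ATF4 and cytosolic heat shock arms were set side by side by the mean log2 deviation of their tested members from the mean of all 6 libraries. The ER chaperones had -0.05, 0.09 and -0.05 in WT mice and 0.04, 0.11 and -0.15 in BIT mice, the narrowest range of these 3 arms. The cytosolic heat shock members had -0.15, 0.06 and 0.28 in WT mice and -0.07, -0.33 and 0.21 in BIT mice. The ATF4 arm had -0.08, 0.12 and 0.40 in WT mice and -0.24, -0.22 and 0.03 in BIT mice, and its BIT mean was lower by 0.29 with a within-group SD of 0.2. This value rested largely on *Ppp1r15a*. The mean of the other 3 tested genes had -0.13, 0.11 and 0.09 in WT mice and 0.03, 0.09 and -0.19 in BIT mice. In that mean BIT mice were lower by 0.05, and replicate 3 was not the highest of either genotype. It combined *Trib3*, which was higher in BIT mice (0.29) at between 0.452 and 0.773 CPM, with *Atf4* (-0.15) and *Ddit3* (-0.25), which were lower. *Atf4* taken singly was highest in replicate 3 of both genotypes, with 85.8 CPM (WT) and 82.0 CPM (BIT). With all tested members, the cytosolic heat shock and ATF4 arms had their highest level in replicate 3 of each genotype, and the ER chaperones of BIT mice had their lowest there. Not all cytosolic members followed their arm. Among BIT mice, *Hspa8*, *Hsp90ab1*, *Hsp90aa1*, *Hsph1* and *Dnaja1* were lowest in replicate 3, and *Hspa1a*, *Hspa1b*, *Dnajb1*, *Bag3* and *Hsf1* were highest. *Hspa1a* and *Hspa1b* varied most, with within-group SDs of 1.37 and 1.08, and the arm was not computed without them. The values of all 3 arms overlapped between genotypes.

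**Figure D5:**
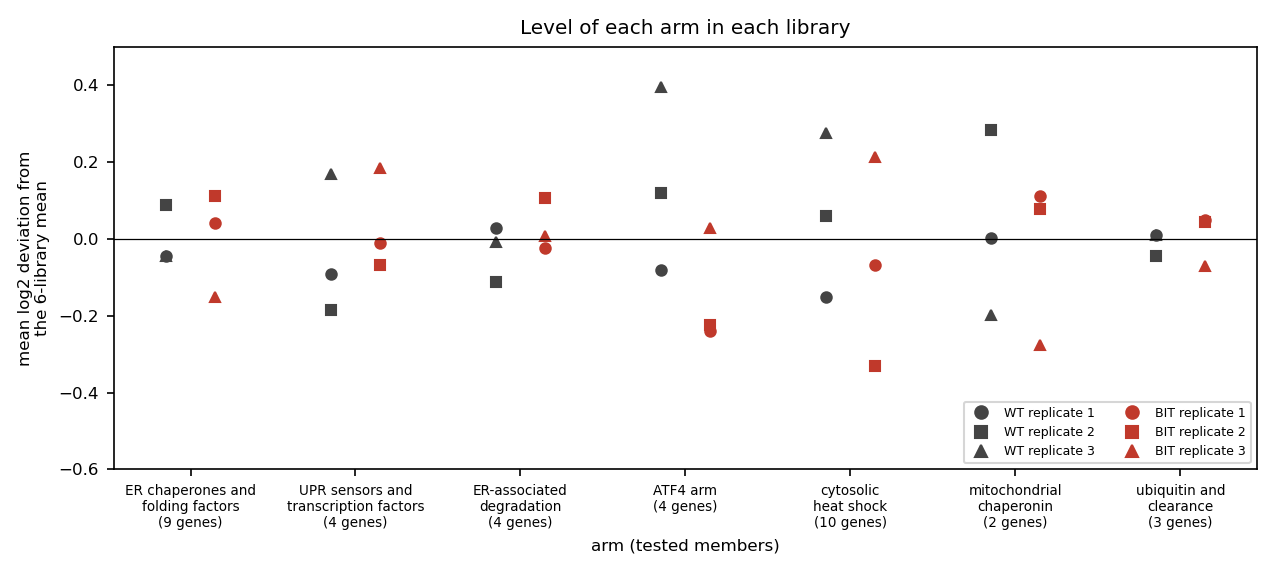
Mean log2 deviation of the tested members of each arm from the mean of the 6 libraries, with WT mice in grey, BIT mice in red and a symbol for each replicate. WT and BIT mice overlap in every arm. The ATF4 arm, through *Ppp1r15a*, and the cytosolic heat shock arm are highest in replicate 3 of each genotype. Among BIT mice, the cytosolic members *Hspa8*, *Hsp90ab1*, *Hsp90aa1*, *Hsph1* and *Dnaja1* are lowest in replicate 3.

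The spread between mice of a genotype differed widely among members. The median within-group SD was 0.138 on the log2 scale over the 36 tested members, near the 0.125 of the 7786 genes above a mean of 10 CPM. *Edem1*, with 0.0595, and *Sel1l*, with 0.0787, were among the steadiest, and 91.5% and 81.3% of those 7786 genes had a larger SD. *Ppp1r15a* (0.886), *Hspa1b* (1.08) and *Hspa1a* (1.37) were at the other end, where at most 0.295% of the genes had a larger SD. *Hspe1*, *Trib3* and *Ddit3* followed with 0.341, 0.333 and 0.332.

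Other genes of these pathways were read from the same fit. Of 124 further chaperones, folding factors, ATF4 targets, proteases and ubiquitin genes, 115 were tested, 0 had an adjusted p below 0.05 by limma, and the median log2 difference was 0.03. At an unadjusted p below 0.05, 4 were higher in BIT mice (3.48%, against 4.25% of all genes) and 2 lower (1.74%, against 4.32%). In the list of 19 tested ATF4 targets and stress kinases, 16 were higher in BIT mice (84.2%, against 52.3% of all genes). Of these 19 genes, 5 were higher without overlap (26.3%, against 7.38%) and 0 lower without overlap. The median of this list was 0.11, whereas the median of the 4 tested members of the ATF4 arm was -0.20.

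*Stc2*, a secreted glycoprotein and ATF4 target, had the smallest adjusted p of these genes. It had 1.06, 1.3 and 0.791 CPM in WT mice and 2.99, 3.42 and 3.25 CPM in BIT mice, without overlap. This was a log2 difference of 1.62 ± 0.254 (SE, limma adjusted p = 0.0859). Among the HSP40 genes, *Dnajb2* and *Dnaja4* were higher in BIT mice by 0.39 and 0.24 log2 units, with limma adjusted p-values of 0.508 and 0.559. *Hspa2*, an HSP70 best known from the testis, had 0.908, 1.32 and 1.7 CPM in WT mice and 0.478, 0.381 and 0.791 CPM in BIT mice, with a log2 difference of -1.27 (limma adjusted p = 0.508). *Hscb*, a mitochondrial co-chaperone of iron-sulfur cluster assembly, had a log2 difference of -0.40 (limma adjusted p = 0.547).

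Secretory cells have high levels of the ER members, and the libraries were therefore examined for other cell types. The summed level of 8 B cell markers was between 47.4 and 60.7 CPM in WT mice and between 41.2 and 48.9 CPM in BIT mice, and that of 12 myeloid markers was between 17.5 and 27.7 CPM and between 12.8 and 18.1 CPM. Among 10 plasma cell genes, of which T cells also express some, *Tnfrsf17*, the plasma cell receptor BCMA, was at 0 counts in every library, and the summed level was between 54.2 and 64.7 CPM in WT mice and between 57.9 and 60.5 CPM in BIT mice. Erythroid genes, summed over 5 genes, were highest in BIT replicate 2, at 56.7 CPM, against 1.8 to 15.7 CPM in the other libraries. NK cell genes, summed over 5 genes, stayed between 3.95 and 5.73 CPM. The 6 stromal and endothelial genes summed to between 94.2 and 122 CPM over all libraries, the largest sum among the lists of non-T cells, mostly from *Pecam1*, which T cells also express, and *Pdpn* was at 0 counts throughout. The part of these cells in the levels of the members was not tested.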

How the data were processed

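RNA of sorted TCRβhigh CD4-CD8+ T cells was analysed from 3 WT and 3 BIT mice, grouped by the sample labels. The authors deposited estimated counts for each gene, from total RNA depleted of ribosomal RNA. Per the labels and the study's methods, reads were trimmed (cutadapt 1.18), aligned to GRCm39 (STAR 2.7.0f) and counted on Gencode M38 (RSEM 1.3.1). The strand setting of the counting is not given in the sources used here. The deposited counts are not normalized, and 84.8% of the values above 0 were whole.

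Counts were rounded, 16105 genes were kept with filterByExpr of edgeR 4.0.16 (minimum count 10), and BIT and WT mice were compared with limma 3.58.1 (voom with quantile normalisation) in R 4.3.3, after the study's methods, with Benjamini-Hochberg adjustment. The fits were tested on simulated counts. Levels of single genes are quantile-normalised CPM unless named plain, and summed levels of marker and immediate early genes are plain CPM. The alternatives were TMM normalisation, edgeR's quasi-likelihood test, DESeq2 1.42.0, other filters, quality weights per sample, a block for the replicate number, a term for replicate 3, replicates 1 and 2 alone and each mouse left out. Positions are from Gencode M39, which matched 78263 of 78275 identifiers.

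The 39 members, their arms, the other gene lists and the alternatives were chosen with earlier results of these data known. Members were described in full by a rule on their p-value, non-overlap and role, and further pathway genes by their unadjusted p. *Ddit3*, *Trib3*, *Dnajb1*, *Hsf1* and *Hspd1* were added after their values were seen. The immediate early genes shown were chosen for the size of their difference.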

Additional observations from a re-analysis of the deposited data

How the results depend on the processing

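Each result was recomputed under 17 alternatives, of which 6 left out 1 mouse. The number of members at an adjusted p below 0.05 was 0 except with a term for replicate 3 of both genotypes and in replicates 1 and 2 only, where it was 1 in each, *Ppp1r15a*. At an unadjusted p below 0.05, the main count of 6 became 3 with edgeR's quasi-likelihood test and 12 in replicates 1 and 2 only. Among all genes, these counts were 1380 of 16105 (main), 1198 of 16105 (edgeR) and 2311 of 16185 (replicates 1 and 2 only). With 1 mouse left out the number of members ranged from 1 to 11. It was 1 without WT or BIT replicate 2, 3 without WT or BIT replicate 1 and 11 without BIT replicate 3. Among all genes it was 795 of 16639 and 648 of 16874 without WT or BIT replicate 2. It was 1250 of 16671 and 1150 of 16721 without WT or BIT replicate 1, and 1794 of 16651 without BIT replicate 3. The median log2 difference of the ATF4 arm was -0.20, and 0.39 without a filter on low counts, where *Atf3*, *Asns* and *Chac1* also entered. With 1 mouse left out it ranged from -0.212 (without WT replicate 1) to -0.0584 (without WT replicate 2), with -0.0788 without BIT replicate 3, -0.0977 without BIT replicate 1, -0.114 without WT replicate 3 and -0.124 without BIT replicate 2. The number of members whose groups did not overlap was 7, and under scalings added after seeing the data it was 5 in plain CPM and 4 in CPM with TMM factors.

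The log2 difference of *Hspa5* turned from -0.08 to 0.0114 in replicates 1 and 2 only and to 0.007 without BIT replicate 3, and with each mouse left out it ranged from -0.14 to 0.007. That of *Hspe1* turned from -0.17 to 0.0589 without WT replicate 2 and ranged from -0.359 to 0.0589 with each mouse left out. The sign was the same in every alternative for 22 of the 36 tested members. Over all genes, the number at an adjusted p below 0.05 was 22 and ranged from 1 (without WT replicate 1) to 37 (without WT replicate 3) with a mouse left out, and it was 125 with DESeq2, 71 in replicates 1 and 2 only and 42 with the term for replicate 3. The causes were not tested.

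Same-numbered mice did not deviate together throughout (correlations across genes of 0.139, 0.0255 and 0.332 for numbers 1, 2 and 3), so the numbers were not taken to pair the mice. With the replicate number as a block, 0 members were called and 7 had an unadjusted p below 0.05. Of all 16105 genes, 21 were called and 2005 had an unadjusted p below 0.05. The block combined with TMM normalisation or with edgeR, added after seeing the data, gave 0 members as well. At 3 mice a group, the depth limited chiefly the members with few counts, and the spread between mice limited *Ppp1r15a*, *Hspa1a* and *Hspa1b*.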
